A study of Mus musculus with 8 samples.

Results

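The genes of ependymal cells and motile cilia were followed in the subventricular zone of 3xTg and wild-type (WT) mice. The group was set by name, as 42 genes known from ependymal cells or from the axoneme of motile cilia, and every probe annotated to one of them was taken. In all 41 of the 42 genes were measured, at 57 of the 32684 probes, and no probe carried the symbol Cfap54. A single probe measured 26 genes, 2 probes measured 14, and 3 probes measured Rfx3. Where a gene had several probes, its brightest probe on average stands for it in counts over genes.

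Total RNA came from microdissected subventricular zones of female mice aged 7 months, 4 of them 3xTg and 4 WT of the control strain, both from crosses of C57BL/6J mothers and 129S1/SvImJ fathers. 3xTg mice model Alzheimer's disease and carry, among other changes, transgenes for human APP and MAPT under a Thy1 cassette, which drives expression in neurons. Each 3xTg sample shared 1 array of 2 colours with the WT sample of its replicate number, always with Cy5 for 3xTg and Cy3 for WT by the labels, so a dye effect of a probe and the genotype cannot be told apart. The labelling protocol given for both groups names Cy3 alone, a conflict that the labels do not settle. The values are log2 intensities as the authors normalized them, and each difference is 3xTg minus WT within arrays, as the mean over 4 arrays. Its standard error (SE) is the moderated one of limma, which draws on the variance of all probes as well as that of the probe itself. Each difference was tested with limma and adjusted over all probes at a threshold of 0.05.

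Ependymal cells line the ventricle as a sheet, and each carries a tuft of motile cilia that moves cerebrospinal fluid across the niche of the neural stem cells. Their cilia are built when the Multicilin programme amplifies centrioles and the factors Foxj1 and Rfx switch on the axonemal genes. Beating needs dynein arms as motors, radial spokes and a central apparatus that control them, and rulers and tektins that hold the doublet microtubules in register. Choroid plexus epithelium is also ciliated, and neighbouring neurons and glia carry primary cilia, which share the transport machinery but lack the parts for beating.

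Ependymal and motile cilia genes showed no shared shift between genotypes on average over 4 arrays. With an SD of 0.21 between the array medians of these genes, a small shift is not shown to be absent. The median difference was 0.002 over 41 genes, against 0.01 over all 21363 measured genes, with 21 genes above 0 and 20 below. That median is the value of Mcidas, counted among those above 0, whose probe was saturated. The median without it is given below. At 1 of 57 probes the difference passed, as higher in 3xTg, where 0.621% of all probes passed as higher and 0.603% as lower. That probe measures Stk36, a kinase needed in mice for the central pair of motile cilia, and at the brightest probe 0 of 41 genes passed in either direction by limma, against 1.18% of all genes. At an unadjusted p under 0.05 there were 2 genes higher, Mlf1 and 1700012B09Rik, and 0 lower, which is 4.88% of the 41 higher, against 8.75% of all measured genes as higher and 9.38% as lower. A difference of 1 sign on all 4 arrays was found for 3 genes as higher, or 7.32% against 13.7% of all genes, and for 0 as lower, against 11.8% of all genes. In size, 3 of the 41 differences were above 0.25 and 1 was above 0.5, that of Mlf1.

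**Figure D1:**
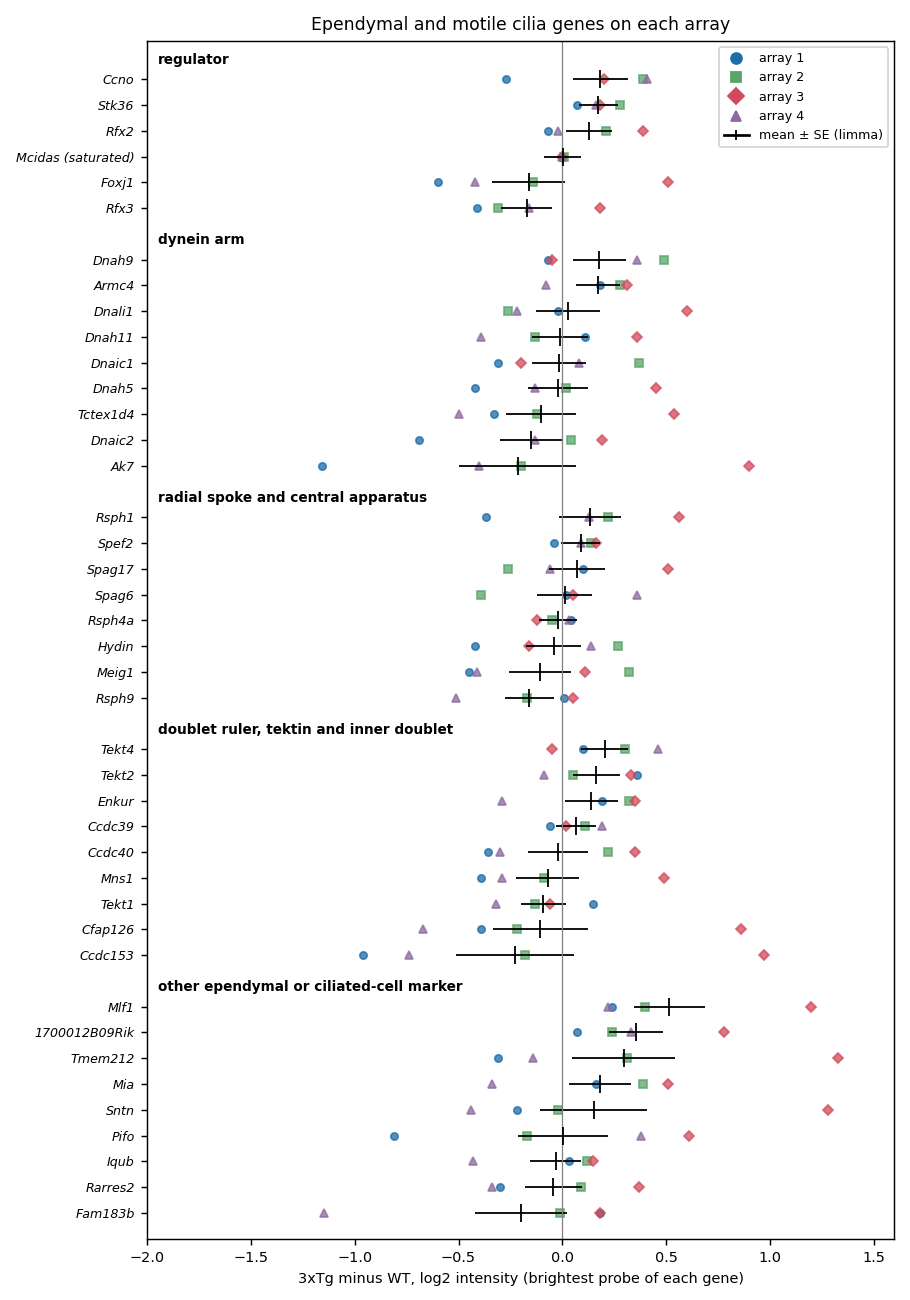
Difference between 3xTg and WT (x axis, log2 intensity) for the brightest probe of each of 41 genes (rows, by role), with a coloured symbol for each of 4 arrays and a black bar for the mean and its SE from limma. Means lie between -0.23 and 0.52, while single arrays spread from -1.16 for Ak7 on array 1 to 1.33 for Tmem212 on array 3; the Mcidas probe is saturated in all 8 samples.

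Levels of these markers do not settle how much ependyma the samples held. Sample medians over all probes lay between 10.12 and 10.15 log2 units. Of the 41 brightest probes, 15 lay above the median of every sample and 15 below it, with means between 7.51 for Spag6 and 13.26 for Ccdc153, leaving Mcidas aside. Intensity depends on the probe as well as on the transcript, and detection above background was not analysed here, so these levels neither bear out nor refute the tissue label and do not rank the genes.

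Among the regulators, Foxj1 encodes the forkhead factor that switches on motile ciliogenesis. Foxj1 measured 10.15, 11.00, 11.69 and 11.50 in 3xTg replicates 1 to 4, against 10.75, 11.14, 11.18 and 11.92 in WT replicates 1 to 4. The groups overlapped, with the 3xTg sample lower on 3 arrays and higher on array 3. Its difference was -0.16 ± 0.18 (SE, limma adjusted p = 0.675).

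Rfx2 and Rfx3 encode winged-helix factors that bind the X-box of cilia genes together with Foxj1. Rfx3 measured 9.93, 9.75, 10.87 and 10.56 in 3xTg and 10.34, 10.05, 10.69 and 10.73 in WT at its brightest probe. The 3xTg sample was the lower on every array except array 3, and all 3 Rfx3 probes had a mean below 0, at -0.17, -0.18 and -0.37, of which none passed (limma, adjusted p = 0.494, 0.502 and 0.338). Rfx2 measured between 8.81 and 9.22 in 3xTg and between 8.72 and 9.02 in WT, with differences of -0.07, 0.21, 0.39 and -0.02 on arrays 1 to 4. The groups overlapped, and the mean difference of 0.13 ± 0.11 did not pass (SE, limma adjusted p = 0.592).

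Ccno and Mcidas are neighbouring genes on chromosome 13, where Mcidas encodes Multicilin and Ccno a cyclin-like protein needed to amplify centrioles. Ccno measured 9.34, 11.05, 9.82 and 11.18 in 3xTg and 9.61, 10.66, 9.61 and 10.77 in WT. Its level was high on arrays 2 and 4 and low on arrays 1 and 3 in both genotypes, and the difference within arrays was 0.18 ± 0.13 (SE, limma adjusted p = 0.513). The Mcidas probe stood at the highest value of the scale in all 8 samples, between 15.98 and 16.00, so it was saturated and gives no difference. Without it, a choice made after seeing the data, the median of the genes was -0.0042.

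Stk36 was measured by a pair of probes that differed in their result. At the probe that passed (A_55_P2036723), 3xTg replicates 1 to 4 measured 10.23, 10.22, 11.03 and 10.63, against 9.23, 9.19, 9.36 and 9.37 in WT. Every 3xTg sample lay above every WT sample, as it did at 2.02% of all probes. The difference was 1.24 ± 0.13 (SE), a 2.36-fold increase that was positive on 4 of 4 arrays (limma, adjusted p = 0.0087). The brighter probe (A_55_P2036733) measured 9.89, 10.27, 10.12 and 10.46 in 3xTg, against 9.82, 9.98, 9.94 and 10.30 in WT. There the 3xTg sample was also higher on each array, but the groups overlapped and the difference of 0.17 ± 0.09 did not pass (SE, limma adjusted p = 0.378). The average of both probes gave 0.71 ± 0.10 (SE, limma adjusted p = 0.0237). Which transcripts each probe binds was not analysed here. The call at A_55_P2036723 was lost without replicate 2, where the difference was 1.31 (limma, adjusted p = 0.0948), and in a fit without the array (adjusted p = 0.0521).

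**Figure D2:**
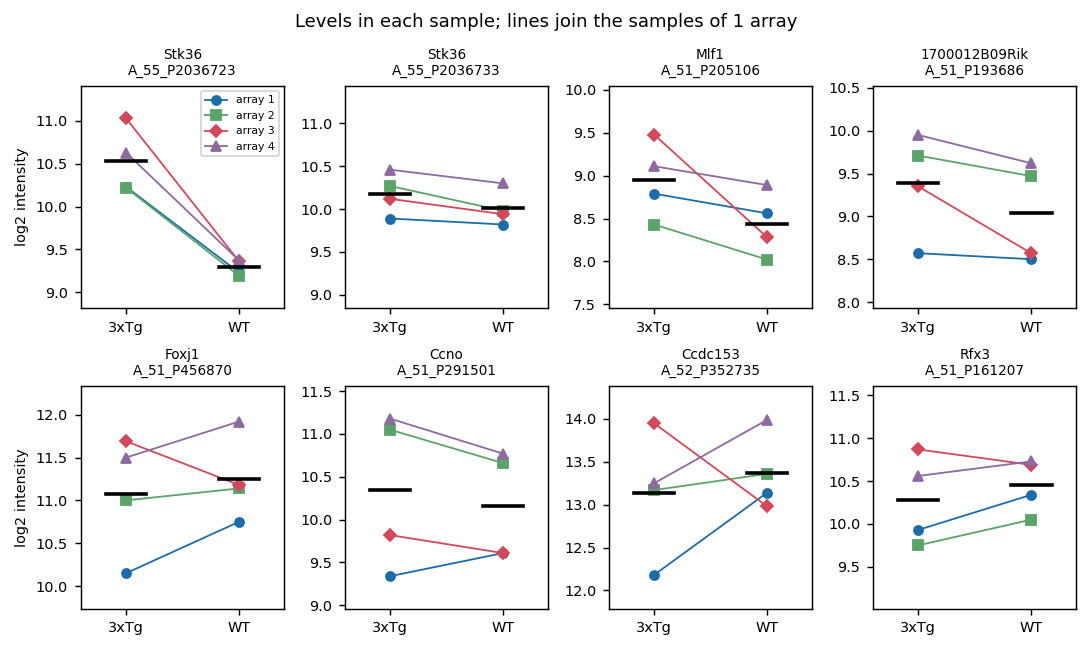
Log2 intensity (y axis, spanning the same width in each panel) in 4 3xTg and 4 WT samples at 8 probes of 7 genes; lines join the samples of 1 array and black bars are group means. At Stk36 A_55_P2036723 every line falls towards WT and the groups separate, while at Foxj1 and Ccdc153 the line of array 3 runs against the other three.

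Promoters are shown for Stk36, which held the probe that passed, for the regulators described above and, as an axonemal gene, for Tekt1. RefSeq windows of 250 bases before to 50 after a gene's start (GRCm38.p6) were at hand for 36 of the 41 genes, in 44 windows, and not for Foxj1. The RFX core GTTGCC, searched on both strands, is the part that matters here and stands in capitals, as GTTGCC or as GGCAAC.
Stk36 (chr1:74601205-74601504, plus strand): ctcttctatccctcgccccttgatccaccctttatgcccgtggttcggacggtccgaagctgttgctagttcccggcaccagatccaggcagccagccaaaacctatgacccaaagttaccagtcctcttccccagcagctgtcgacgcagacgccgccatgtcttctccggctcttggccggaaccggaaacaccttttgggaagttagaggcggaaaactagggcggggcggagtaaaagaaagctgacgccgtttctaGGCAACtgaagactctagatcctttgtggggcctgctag
Rfx2 (chr17:56830959-56831258, minus strand): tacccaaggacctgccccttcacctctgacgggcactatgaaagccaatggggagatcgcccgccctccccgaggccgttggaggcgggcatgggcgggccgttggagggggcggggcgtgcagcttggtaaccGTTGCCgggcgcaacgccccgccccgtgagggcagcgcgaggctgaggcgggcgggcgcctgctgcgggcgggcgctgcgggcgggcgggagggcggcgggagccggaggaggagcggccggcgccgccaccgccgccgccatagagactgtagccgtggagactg
Rfx3 (chr19:28011117-28011416, minus strand): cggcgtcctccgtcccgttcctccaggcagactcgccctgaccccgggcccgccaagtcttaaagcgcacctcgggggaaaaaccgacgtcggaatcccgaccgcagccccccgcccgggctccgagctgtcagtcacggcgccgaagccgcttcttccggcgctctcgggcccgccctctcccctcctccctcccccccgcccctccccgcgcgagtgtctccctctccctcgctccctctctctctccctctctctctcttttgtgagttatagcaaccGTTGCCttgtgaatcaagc
Mcidas (chr13:112993618-112993917, plus strand): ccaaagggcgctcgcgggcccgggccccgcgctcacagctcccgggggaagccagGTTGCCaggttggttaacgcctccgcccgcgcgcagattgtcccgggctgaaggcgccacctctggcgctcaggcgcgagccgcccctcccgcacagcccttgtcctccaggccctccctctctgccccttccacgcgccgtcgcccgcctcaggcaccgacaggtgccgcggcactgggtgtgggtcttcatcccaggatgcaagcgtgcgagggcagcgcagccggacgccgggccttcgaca
Ccno (chr13:112987552-112987851, plus strand): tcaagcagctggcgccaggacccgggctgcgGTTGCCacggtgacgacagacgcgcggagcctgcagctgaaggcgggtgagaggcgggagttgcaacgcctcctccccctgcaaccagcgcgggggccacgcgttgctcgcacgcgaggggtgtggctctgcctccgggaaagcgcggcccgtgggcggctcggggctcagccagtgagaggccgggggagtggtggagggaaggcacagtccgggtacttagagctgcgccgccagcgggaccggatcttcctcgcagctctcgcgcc
Tekt1 (chr11:72361833-72362132, minus strand): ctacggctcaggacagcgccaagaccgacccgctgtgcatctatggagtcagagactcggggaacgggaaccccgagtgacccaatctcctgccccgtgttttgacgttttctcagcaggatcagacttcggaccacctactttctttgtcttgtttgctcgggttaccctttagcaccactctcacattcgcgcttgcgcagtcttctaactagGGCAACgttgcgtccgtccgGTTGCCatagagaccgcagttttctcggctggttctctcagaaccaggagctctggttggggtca
At least 1 such core stood in the windows of 20 of the 36 genes (55.6%), against 14.1% of all 27025 genes with a window. The paired RFX X-box, an inverted repeat that may contain the core, was present for Pifo alone of the 36, against 0.529% of all genes. The forkhead motif GTAAACA was present for Ak7, Iqub, Mlf1 and Sntn, or 11.1%, against 4.05% of all genes. The Tekt1 window shown holds the core on both strands, and another Tekt1 window, not shown, does not hold it. A match is a description of the sequence and says nothing of which factor was bound in these samples.

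The set of dynein arm genes, in which the axonemal kinase gene Ak7 was counted, had a median difference of -0.02, with 3 of 9 above 0. Dnah5, Dnah9 and Dnah11 encode outer-arm heavy chains, and their differences were -0.02, 0.18 and -0.01. Dnah9 at its dimmer probe (A_55_P2181397) measured 8.52, 8.11, 8.53 and 8.35 in 3xTg and 8.49, 7.86, 8.15 and 8.08 in WT. The 3xTg sample was higher on 4 of 4 arrays there, by 0.23 ± 0.10 on average, and this did not pass (SE, limma adjusted p = 0.279). The intermediate chains Dnaic1 and Dnaic2 differed by -0.02 and -0.15, the inner-arm light chain Dnali1 by 0.03 and the light-chain relative Tctex1d4 by -0.10. Armc4, which docks outer arms on the doublet, measured 9.43, 10.64, 9.36 and 9.25 in 3xTg and 9.24, 10.36, 9.05 and 9.33 in WT. Both samples of array 2 stood above the rest, and the difference within arrays was 0.17 ± 0.11 (SE, limma adjusted p = 0.434).

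Ak7, an adenylate kinase of axonemes, varied more over arrays than any other of the 41 genes. Ak7 measured 10.39, 11.23, 12.13 and 11.90 in 3xTg and 11.55, 11.43, 11.23 and 12.30 in WT. Its within-array differences were -1.16, -0.20, 0.90 and -0.40, so the 3xTg sample was far lower on array 1 and far higher on array 3. The mean of -0.21 ± 0.28 did not pass (SE, limma adjusted p = 0.736).

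Genes of the radial spokes and central apparatus had the narrowest range of the 5 sets, from -0.16 to 0.13, with 4 of 8 above 0 and a median of -0.01. Rsph1, Rsph4a and Rsph9 encode parts of the spoke head, and they differed by 0.13, -0.02 and -0.16. The differences of Rsph4a had a range of 0.16 over the 4 arrays, with levels of 9.77, 9.82, 10.08 and 10.17 in 3xTg and 9.73, 9.87, 10.19 and 10.14 in WT. Hydin, Spag17 and Spef2, of the central apparatus, differed by -0.04, 0.07 and 0.09, and Meig1 by -0.11. Spag6, also of the central apparatus, gave 0.01 at its brightest probe and -0.40 ± 0.19 at the other (A_55_P2045745), where 3xTg measured 7.14, 7.08, 6.95 and 7.70 and WT 7.46, 7.72, 7.90 and 7.41. There 3xTg was lower on arrays 1 to 3 and higher on array 4, and the difference did not pass (limma, adjusted p = 0.315).

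Among genes of the doublet, Ccdc39 and Ccdc40 form the ruler that sets the spacing of arms and spokes. They differed by 0.07 and -0.02. The tektins Tekt1, Tekt2 and Tekt4, filaments within the doublets, differed by -0.09, 0.16 and 0.20, of which none passed (limma, adjusted p = 0.699, 0.487 and 0.392). Tekt4 measured 12.26, 12.72, 12.01 and 13.09 in 3xTg and 12.17, 12.41, 12.06 and 12.63 in WT, with 3xTg higher on 3 of 4 arrays and the groups overlapping. Tekt2 measured 12.85, 11.77, 12.51 and 11.96 in 3xTg and 12.49, 11.72, 12.18 and 12.05 in WT, again higher on 3 arrays. Mns1, Enkur and Cfap126, which encodes the basal body protein Flattop, differed by -0.07, 0.14 and -0.11.

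Ccdc153, an axonemal gene used as a marker of ependymal cells, had the most negative mean of the 41. Ccdc153 measured 12.18, 13.17, 13.95 and 13.25 in 3xTg and 13.14, 13.36, 12.98 and 13.99 in WT. The highest 3xTg sample was that of array 3 and the lowest WT sample was its partner on the same array. The difference of -0.23 ± 0.29 lay within the spread of the arrays (SE, limma adjusted p = 0.721).

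The remaining ependymal and ciliated-cell markers had the highest median of the sets, 0.15, with 6 of 9 above 0. Mlf1 measured 8.79, 8.43, 9.48 and 9.11 in 3xTg and 8.56, 8.02, 8.28 and 8.89 in WT. The 3xTg sample was higher on 4 of 4 arrays, most of all on array 3 (1.20), while the groups overlapped. Its difference of 0.52 ± 0.17 did not pass (SE, limma adjusted p = 0.19).

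1700012B09Rik measured 8.57, 9.71, 9.35 and 9.95 in 3xTg and 8.50, 9.47, 8.57 and 9.62 in WT, also higher on each array. Its difference was 0.35 ± 0.13 (SE, limma adjusted p = 0.221). Tmem212, which encodes a membrane protein, measured 8.71, 9.69, 10.36 and 10.19 in 3xTg and 9.02, 9.38, 9.03 and 10.33 in WT. It was higher in 3xTg on arrays 2 and 3 only, and the mean of 0.30 ± 0.25 did not pass (SE, limma adjusted p = 0.571). Fam183b measured 12.65, 11.77, 11.68 and 10.70 in 3xTg and 12.47, 11.78, 11.50 and 11.85 in WT, where a difference of -1.15 on array 4 stood against 0.18, -0.01 and 0.18 on arrays 1 to 3. The other genes of this set were near 0 or within their spread: Sntn (0.15), which encodes the cilium-tip protein sentan, the secreted Mia (0.18), Pifo (0.003), Iqub (-0.03) and Rarres2 (-0.04), which encodes chemerin.

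Probes of the same gene mostly had 1 sign. Of 15 genes with several probes, 11 kept 1 sign over all of them, and Ccdc40, Pifo, Rsph4a and Spag6 had both signs.

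The differences of many of the 41 genes changed with the array. Each array holds 1 pair of biological samples, so an effect of the array and one of the mice or their dissection cannot be told apart. Over arrays 1 to 4 their median differences were -0.07, 0.05, 0.35 and -0.13, where those of all measured genes were 0.03, 0.01, 0.00 and 0.00. On array 3 the 3xTg sample was the higher for 34 of 41 genes (82.9%), against 50.3% of all genes. On arrays 1 and 4 it was the higher for 16 (39.0%) and 14 (34.1%), against 54.9% and 49.5% of all genes, and on array 2 for 24 (58.5%), against 52.4%. Array 3 gave the highest signed difference of the 4 arrays for 28 of the 41 genes (68.3%), against 28.3% of all genes. In 16 genes, Foxj1, Ccdc153, Ak7 and Sntn among them, the sign was positive on array 3 and negative on arrays 1 and 4, a pattern of 39.0% of the 41 and 10.1% of all genes. The share above 0 on array 3 was also high elsewhere, at 100% of 11 myelin genes and 85.7% of 14 striatal markers. Across the other lists below it was lowest for 12 astrocyte and stem cell genes, at 41.7%. Genes of 1 tissue component are not independent, and these shares carry no test.

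**Figure D3:**
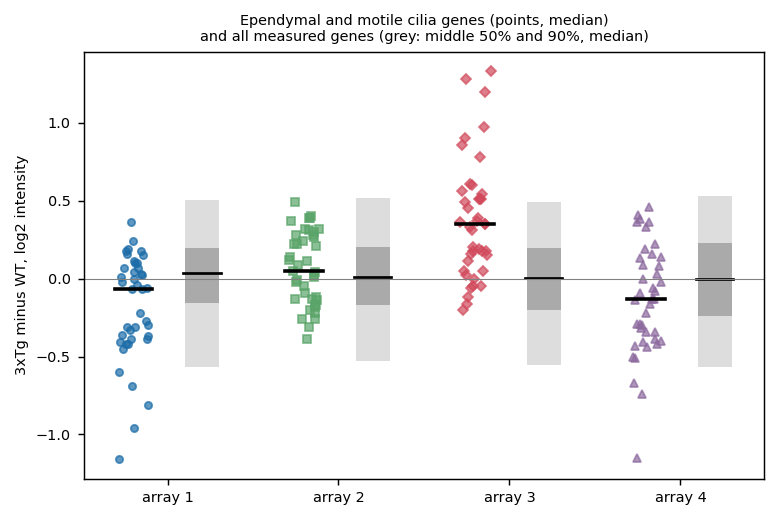
Difference between 3xTg and WT (y axis, log2 intensity) on each of 4 arrays, with 41 ependymal and motile cilia genes as points and their median as a black line, and to the right the middle 50% and 90% of all 21363 measured genes in grey. The points of array 3 lie mostly above 0, with a median of 0.35, and those of array 4 mostly below, with a median of -0.13.

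Across the 41 genes the range over arrays had a median of 0.72, against 0.50 over all genes. It was above 1 in 9 genes (22.0%, against 7.48% of all genes), and in each of these 9 the highest signed difference, shared in Fam183b with array 1, was on array 3, though by size that of array 1 was larger in Ak7, Pifo and Foxj1 and that of array 4 in Fam183b. The 9 genes were Ak7, Ccdc153, Sntn, Tmem212, Cfap126, Pifo, Fam183b, Foxj1 and Tctex1d4. Averaged over the 41 genes and set against each gene's own mean, the samples stood at -0.34, 0.03, 0.22 and 0.15 in 3xTg replicates 1 to 4 and at -0.16, -0.04, -0.15 and 0.29 in WT. The lowest sample was 3xTg of array 1 and the highest was WT of array 4, so the groups overlapped. In bulk tissue, fewer ependymal cells and less RNA per cell cannot be told apart.

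Not all genes took part in this. Tekt1 measured 12.07, 11.71, 11.29 and 10.18 in 3xTg and 11.93, 11.84, 11.35 and 10.50 in WT, highest on array 1 and lowest on array 4 in both genotypes, whereas Foxj1 was lowest on array 1 in both. Range over arrays was under 0.5 in 9 genes, with Ccdc39 (0.24), Spef2 (0.19) and Rsph4a (0.16) the smallest outside Stk36 and the saturated Mcidas. Leaving Mcidas aside, the SD between arrays of the level of a gene had a median of 0.41 in 40 genes, and that of its difference 0.33, against 0.26 and 0.22 over all genes.

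Genes of motile cilia outside the 42 were taken as further lists, chosen with earlier results of these data known. Of all measured genes 0.562% passed as higher and 0.623% as lower, the shares to set beside this list and those that follow. Of 18 other regulators of multiciliation and centriole amplification, 1 passed as higher and 0 as lower, with a median of 0.02. That gene is Rfx1, an X-box binding factor related to Rfx2 and Rfx3, whose mean was 12.65 ± 0.17 in 3xTg samples and 12.04 ± 0.18 in WT samples (SD, n = 4). The rise of 0.61 ± 0.09 was positive on 4 of 4 arrays, between 0.55 and 0.75 (SE, limma adjusted p = 0.0342). Gmnc and Deup1, which act with Multicilin in making centrioles, differed by 0.18 and 0.20 and did not pass (limma, adjusted p = 0.47 and 0.426).

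Of 31 other dynein arm, docking and assembly genes, 0 passed by limma, with a median of 0.03. At an unadjusted p under 0.05, 7 were higher (22.6%, against 8.75% of all genes) and 0 lower (against 9.38%). The smallest p were those of the heavy chains Dnah7a (0.45 ± 0.10) and Dnah8 (0.42 ± 0.11), each higher on 4 of 4 arrays (SE, limma adjusted p = 0.0853 and 0.108). Of 33 other genes of spokes, central apparatus, nexin links and doublets, 12 lay above 0, the median was -0.08 and 1 passed as lower. At an unadjusted p under 0.05, 1 of them was higher (3.03%) and 4 were lower (12.1%). The gene that passed was Rsph3a, a radial spoke gene, which stood at 11.01 ± 0.18 in 3xTg samples and 11.67 ± 0.19 in WT samples (SD, n = 4). It fell by 0.67 ± 0.11 (SE, limma adjusted p = 0.0383). Its other probes gave -0.30 and 0.37, and it has a near copy in Rsph3b (-0.45, adjusted p = 0.105), so which of them the probes measure is uncertain.

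Transport genes that motile and primary cilia share had a median of 0.02 over 36, with 19 above 0. Ttc8, a subunit of the BBSome, which carries membrane proteins in cilia, rose by 0.82 ± 0.10 (SE), to 11.39 ± 0.31 in 3xTg samples against 10.57 ± 0.35 in WT samples (SD, n = 4, limma adjusted p = 0.017). No other of the 36 passed, where 0.562% of all genes passed as higher. Of 16 genes of ependymal polarity, junctions and surface, with a median of -0.0027, 1 gene passed, Vangl2, a planar polarity protein that orients ciliary tufts. Vangl2 rose by 0.68 ± 0.12 at its brightest probe and by 0.70 ± 0.11 at another (SE, limma adjusted p = 0.043 and 0.0368), and the remaining probe gave 0.42 without passing. In the same list S100b (0.39), Aqp4 (0.28), Vim (-0.28) and Cd24a (-0.26) did not pass.

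The calls at the 5 probes of Rfx1, Rsph3a, Ttc8 and Vangl2 were kept in some alternatives and lost in others. All 5 passed with the array as a random block, with median centring and with loess within arrays. All 5 also passed with trend and robust moderation and without the dimmest 25% of probes. None of the 5 passed without replicate 1 (limma, adjusted p between 0.0692 and 0.147), without replicate 2 (between 0.208 and 0.343) or without the array in the fit (between 0.203 and 0.902). Over all probes calls fell as well, from 203 higher and 197 lower to 74 and 57 without replicate 1. They fell to 12 and 19 without replicate 2, and to 47 and 31 without the array. Ttc8 and 1 Vangl2 probe passed without replicate 3, and Ttc8 alone without replicate 4. Over the left-out arrays Rfx1 stayed between 0.56 and 0.62, Ttc8 between 0.78 and 0.90 and Rsph3a between -0.74 and -0.60. Quantile normalisation ended the calls of Rsph3a (limma, adjusted p = 0.0542) and of Vangl2 at its brightest probe (0.0547). With the probes of a gene averaged, Rsph3a was at -0.20 (limma, adjusted p = 0.276) and Vangl2 at 0.60 (0.0595), while Ttc8 (0.0145) and Rfx1 (0.0273) passed. These genes are also active in neurons and glia, and their cell of origin in these samples was not tested.

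Markers of the other cells at the ventricle were set beside these results. Of 18 measured choroid plexus genes 10 lay above 0, with a median of 0.03 and medians of 0.14, 0.02, 0.25 and -0.10 on arrays 1 to 4. Their mean level lay between 9.51 and 9.88 in 3xTg and between 9.63 and 9.73 in WT, and 0 passed by limma. At an unadjusted p under 0.05, 3 were higher and 3 lower, 16.7% each, against 8.75% and 9.38% of all genes. Ttr, the choroid plexus carrier of thyroxine, averaged 10.04 ± 0.39 in 3xTg samples and 9.11 ± 0.44 in WT samples (SD, n = 4), and the difference of 0.93 ± 0.19 did not pass (SE, limma adjusted p = 0.0713). Slc4a5, a bicarbonate transporter of that epithelium, differed by -0.54 and did not pass either (limma, adjusted p = 0.0711). With the array as a random block both passed, Ttr as higher and Slc4a5 as lower (limma, adjusted p = 0.0241 and 0.0176). Array 3 thus had the highest and array 4 the lowest median for choroid plexus genes as for the ependymal genes, and the part of choroid plexus in the ependymal differences was not tested.

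Striatal projection neuron markers showed the widest differences between arrays, at -2.06, -1.67, 0.31 and -0.36, with a median of -0.94. Of the 14 genes 0 lay above 0, against 52.6% of all genes. By limma 11 were lower at an unadjusted p under 0.05 (78.6%, against 9.38% of all genes) and 0 higher. The mean level of the 14 lay between 12.18 and 13.93 in 3xTg and between 13.67 and 14.27 in WT. Array 3 was the only array where both this list and the ependymal genes had a median above 0. Of the 26 probes of the list 1 passed as lower, where 0.603% of all probes did. That probe measures Arpp21 (-1.25, limma adjusted p = 0.0291). Arpp21 did not pass at its brightest probe (-1.26) or at its remaining probe (-0.47, limma adjusted p = 0.2 and 0.109). Septal and cholinergic markers had medians of 1.15, 0.96, 0.41 and 0.05, with levels between 10.68 and 11.68 in 3xTg and between 10.36 and 10.92 in WT. Of the 10 measured genes of this list 8 lay above 0. By limma 7 were higher at an unadjusted p under 0.05 (70.0%, against 8.75% of all genes) and 0 lower. Chat (-0.33), Slc5a7 (-0.05) and Slc18a3 (0.18), of cholinergic neurons, did not pass. The 3 that passed as higher, against 0.562% of all genes, were the transcription factor genes Zic1, Zic4 and Isl1 (1.49, 0.74 and 0.71, limma adjusted p = 0.0496, 0.0466 and 0.0429). Neither these 3 nor Arpp21 passed without replicate 1 or without replicate 2 (limma, adjusted p between 0.0948 and 0.353), nor without the array. Quantile normalisation also ended the calls of Zic1, Zic4 and Isl1 (limma, adjusted p = 0.0732, 0.064 and 0.0559). Medians were 0.01 for 12 astrocyte and stem cell genes, 0.13 for 13 neuroblast genes and 0.40 for 11 myelin genes. On arrays 1 to 4 the myelin medians were -0.12, 0.63, 0.71 and 0.57. The part of these other tissues in the ependymal values was not tested.

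**Figure D4:**
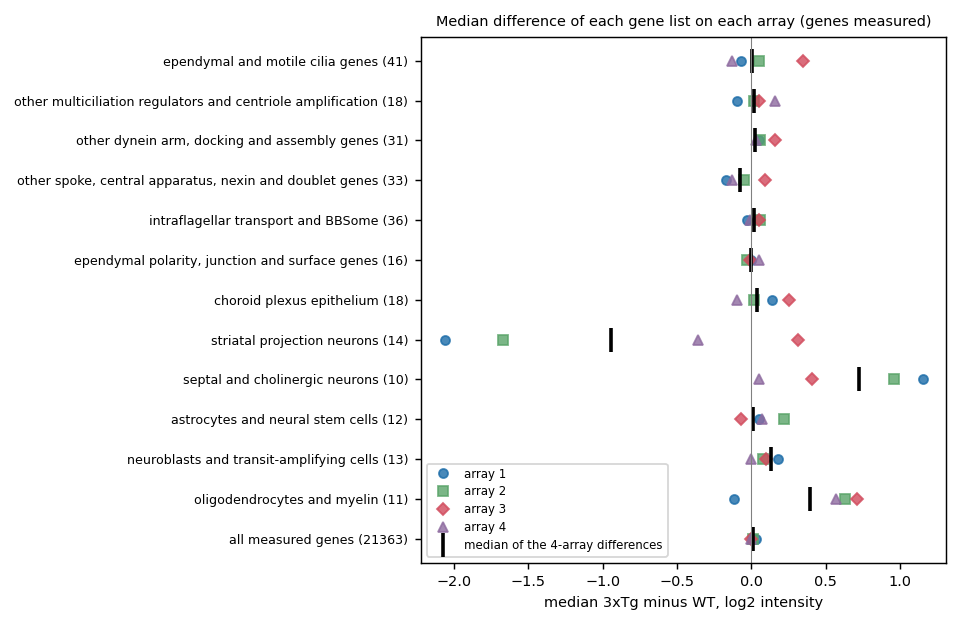
Median difference between 3xTg and WT (x axis, log2 intensity) of each gene list (rows, with the number of genes measured) on each of 4 arrays (coloured symbols), and the median of the mean differences (black bar). The 41 ependymal and motile cilia genes lie near 0 except on array 3 (0.35), while striatal markers range from -2.06 to 0.31.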

How the data were processed

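RNA of 8 subventricular zone samples was measured on 4 arrays of 2 colours. The deposited values are log2 intensities, 1 per probe and sample, normalized by the authors; limma is named, without a version, per the submitters' processing notes. How background, scaling and probe filters were handled is not given in the sources used here. With 4 arrays precision is low, and no detection calls were used.

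Probes were named through the platform annotation, which gave 1 symbol to 29769 of 32684 probes. The fit over all probes used limma 3.58.1 under R 4.3.3 (array and genotype as fixed effects, default moderation, two-sided p, Benjamini-Hochberg over all probes), a fit tested on simulated data. A difference that did not pass is not shown to be absent. Deviations from the group means correlated between samples of 1 array at r = 0.78, 0.78, 0.54 and 0.82, and at 0.18 at most between arrays. The replicates are biological per the labels. Alternatives were dropping the array from the fit, a random array block (statmod 1.5.0), other scalings and moderation, leaving out dim probes or each array, and averaging probes. The genes and lists were chosen with earlier results of these data known. Per-sample values are given for the 10 genes of smallest p, those that passed, 5 regulators and the 3 largest differences in each direction; Rsph4a and Tekt1 were added after their values were seen. In the other lists, genes that passed are named, and for dynein and choroid plexus genes the 2 of smallest p. Gmnc, Deup1, Rsph3b, S100b, Aqp4, Vim, Cd24a, Chat, Slc5a7 and Slc18a3 were added after their values were seen. Sequences are from RefSeq (GRCm38.p6).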

Additional observations from a re-analysis of the deposited data

Results flagged for a closer look

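In 5 of 128 groups of 4 samples looked at, 1 sample stood apart from the other 3 by a gap larger, as a share of the range, than Dixon's critical value; chance gives about 1 in 20. Armc4 measured 10.64 in 3xTg replicate 2, against 9.25 to 9.43 in the other 3xTg samples. In WT replicate 4, Ccdc40 measured 11.81, against 11.00 to 11.04 in the other WT samples, and Sntn measured 11.11, against 9.93 to 10.01. Spag6 at its brightest probe measured 7.12 there, against 7.59 to 7.68, and the myelin gene Gjc3 measured 12.67, against 12.35 to 12.40.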

How the results depend on the processing

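The count of probes of ependymal and motile cilia genes that passed as higher was 1, and it was 0 with no replicate block (without the array in the fit); leaving out each replicate gave 0 to 1, with 0 without replicate 2. The count that passed as lower was 0 in every alternative. The median difference of these genes lay between -0.0115 (loess within arrays) and 0.0058 (median centring) over the scalings, moved less than the SD of its array values (0.21) in every alternative, and lay between -0.0740 (without replicate 3) and 0.0866 (without replicate 1) with 1 replicate left out; its sign thus depends on the setting. Across all probes, 203 were called higher and 197 lower, against 47 and 31 without the array, 551 and 758 with it as a random block, 405 and 500 with trend and robust moderation, and 12 and 19 without replicate 2. For named probes, 10 of 482 recomputed differences had another sign, none of them called. Of the list medians, 189 of 192 moved by less than the SD over arrays. With the array as a random block, Dnah7a passed as higher (adjusted p = 0.0283), as did Ttr (0.0241), Slc1a3 (0.0367), Ugt8a (0.0315), Gjc3 (0.0405) and Sp9 (0.0123), while Slc4a5 (0.0176) and Sox11 (0.0341) passed as lower and Zic4 was lost (0.233). With trend and robust moderation Ttr (0.0281) and Slc4a5 (0.0386) passed and Zic1 was lost (0.0643), and Ttr also passed without replicate 4 (1.19, limma adjusted p = 0.0156). Without dim probes Zic1 (0.0579) and Zic4 (0.0503) were lost. Small differences are the least certain, since only 4 arrays were run.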

Other observations

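Genes next to Stk36 on chromosome 1 were looked at after its values were seen. Of the 5 measured genes on either side in the RefSeq order (GRCm38.p6), none passed at any of their 15 probes (limma). Rnf25, the neighbour on one side, differed by 0.20 (adjusted p = 0.521) and Ttll4, the neighbour on the other, by 0.05 (adjusted p = 0.893). The smallest adjusted p was that of Cnot9, with a difference of 0.43 (adjusted p = 0.107) that was positive on 4 of 4 arrays.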
